A study of Mus musculus with 6 samples.

Results

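A set of 10 genes of antigen presentation to CD4 T cells was followed in T cells sorted from mouse skin: Cd83, Cd74, H2-Aa, H2-Ab1, H2-Eb1, H2-DMa, H2-DMb1, Ciita, Cd80 and Cd86. They were taken by symbol from the deposited count table, where all 10 of 10 were found among 15106 genes, and all 10 passed the filter on low counts that left 11775 genes for testing. RNA had been sequenced from 4 libraries of regulatory T cells (Tregs, the suppressive T cells that depend on the transcription factor FOXP3) and 2 libraries of effector T cells (Teffs). Both groups were sorted from the skin of mice aged 6 weeks carrying a GFP reporter of FOXP3, with no treatment or further allele named. The strain is not named, and neither are the gates of the sort nor whether libraries came from separate animals. Any p-value here reflects library-to-library spread alone, which can be partly technical.

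MHC class II molecules are pairs of an alpha and a beta chain that show peptides from ingested proteins to CD4 T cells. CD74, the invariant chain, fills the groove of newly made pairs, H2-DM later exchanges its remnant for peptide, and CIITA is the coactivator that switches these genes on. CD80 and CD86 on the presenting cell engage CD28, which stimulates T cells, and CTLA-4, which Tregs use to take these ligands away. CD83 marks mature dendritic cells and activated lymphocytes, and in dendritic cells it keeps class II and CD86 on the surface by opposing the ubiquitin ligase MARCH1, and in thymic epithelium it protects class II from the related ligase MARCH8. Dendritic cells, Langerhans cells, macrophages and B cells are the main class II-bearing cells, whereas mouse T cells are generally held to make little class II of their own.

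Class II genes share a promoter module, an X box bound by the RFX complex and a Y box bound by NF-Y, on which CIITA acts. RefSeq promoters of GRCm38.p6, from 250 bases before to 50 after a gene start, were at hand for 5 of the 10 genes (H2-Aa, H2-Eb1, H2-DMa with 2 starts, H2-DMb1 and Cd80). The windows below are shown because the 2 chain genes H2-Aa and H2-Eb1, whose counts moved together across the libraries, and H2-DMb1 hold the same arrangement. Capitals mark an X box form, CTNGNAACT, and after it a Y box, TGATTGG, with 15 further bases on either side.
H2-Aa: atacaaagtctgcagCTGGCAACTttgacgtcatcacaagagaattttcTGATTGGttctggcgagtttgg
H2-Eb1: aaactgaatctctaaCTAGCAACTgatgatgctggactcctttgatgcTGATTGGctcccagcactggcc
H2-DMb1: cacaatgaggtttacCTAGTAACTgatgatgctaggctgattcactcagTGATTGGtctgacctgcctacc

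These windows lie at chr17:34287852-34287922 on the minus strand (H2-Aa), chr17:34305758-34305827 on the plus strand (H2-Eb1) and chr17:34153079-34153149 on the plus strand (H2-DMb1). The boxes were 25, 24 and 25 bases apart, and the Y box began 50, 61 and 63 bases before the RefSeq start. GENCODE puts the start of H2-DMb1 ahead of its window, at 34153072, so the last of these distances holds for the RefSeq start alone. Both forms were read from these promoters after their sequences had been seen, and both strands were searched. Among 32851 promoters of the same length, 7.82% held the Y box, 4.10% held the X box form, and 5 (0.0152%) held the X box form followed within 40 bases by the Y box. Of these 5, 3 are the promoters shown, from which the forms were written, so their rarity is largely fixed by that choice. Neither form was found in the windows of H2-DMa or Cd80. A match of letters is a description and does not show binding.

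Library sizes were 6079194, 6289509, 5582022 and 7046685 gene counts in Treg 1 to Treg 4, and those of Teff 1 and Teff 2 were 7468778 and 4902126. Values are CPM, counts scaled to library size, and are given in the order of the replicate numbers wherever a library is not named. On that scale 3 counts, taken as the floor, are 0.397 to 0.581 CPM. Foxp3 stood at 103 to 233 CPM in Tregs and at 11.3 and 7.17 CPM in Teffs. Other annotated genes, the same-strand Flicr among them, overlap 31.5% of the exonic bases of Foxp3. The 7 T cell markers, Cd3e and Cd4 among them, were found in every library and summed to 4168 to 8565 CPM in Tregs and 7800 to 8314 CPM in Teffs. Treg 3 stood apart in fibroblast and keratinocyte markers, at 1994 and 566 CPM summed, against at most 8.30 and 20.7 CPM in the other Treg libraries and at most 177 and 90.2 CPM in Teffs. Treg 4 stood apart in dendritic cell markers, described with the class II genes. Results are therefore also given without these libraries.

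Cd83 was far higher in Tregs than in Teffs. It stood at 1733, 842, 849 and 1188 CPM in the Treg libraries, against 54.9 and 49.6 CPM in the Teff libraries. The groups did not overlap, which holds with Tregs higher for 5.51% of all genes tested. The difference was 4.46 ± 0.49 (SE) on the log2 scale, Treg minus Teff, with a 95% interval of 3.33 to 5.60. It passed edgeR's quasi-likelihood test over all genes (adjusted p = 0.0460), where Cd83 had the fourth lowest p of 11775. Cd83 was 1 of 10 members called, against 0.0425% of all genes tested. DESeq2 likewise called Cd83 alone of the 10, against 1.86% of the genes it tested. Cd83 was already known as a called gene when the 10 genes were chosen. In the authors' deposited table the same gene has a log2 fold change of 4.41 and an FDR of 1.94e-05, and 0.285% of the genes there pass an FDR of 0.05.

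The level of Cd83 was also fairly even within each group. Its coefficient of variation over the 4 Treg libraries was 36.3%, against a median of 76.4% over all genes tested, and 15.1% of those genes had a lower one. The median level of those genes was 33.1 CPM, far under that of Cd83 in Tregs, so the levels compared are unlike. Of the genes nearest to Cd83 in pattern, given below, Il2ra (17.4%), Il1rl1 (21.6%) and Ctla4 (22.5%) were more even. Tigit (38.7%) and Lclat1 (51.9%) were less so. The highest Treg library was 2.06 times the lowest, and both Teff libraries were within 1.11 times of each other. Without Treg 3 the log2 fold change was 4.59 and without Treg 4 it was 4.45. The adjusted p of edgeR's test was then 0.110 and 0.301, so the call ended, as it did when any other single library was left out (adjusted p of 0.0791 to 0.445 over all 6). Summed markers of some other cells separated the groups as well. The 2 of 3 Langerhans cell markers found summed to 84.5 to 145 CPM in Tregs, against 18.7 and 48.1 CPM in Teffs. The 3 of 4 markers of CD8 or gamma-delta T cells found ran the other way, at 0.180 to 65.6 CPM in Tregs, against 151 and 109 CPM in Teffs, with Cd8a at 0 in Treg 1 to Treg 3 and Cd163l1 at 0 in all Treg libraries. The 2 of 4 endothelial markers found summed to 16.1 to 66.1 CPM in Tregs, against 85.0 and 121 CPM in Teffs. Most of that sum was Pecam1 in every library. The other, Cdh5, overlapped between the groups, at 0, 0, 7.89 and 0 CPM in Tregs, against 2.65 and 0 CPM in Teffs. The part of such cells in the Cd83 difference was not tested.

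None of the exonic bases of Cd83 overlap another annotated gene, and none of its 50-base stretches recur in transcripts of another gene. The gene lies on chromosome 13, from 43784775 to 43803132 (GRCm38).

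**Figure D1:**
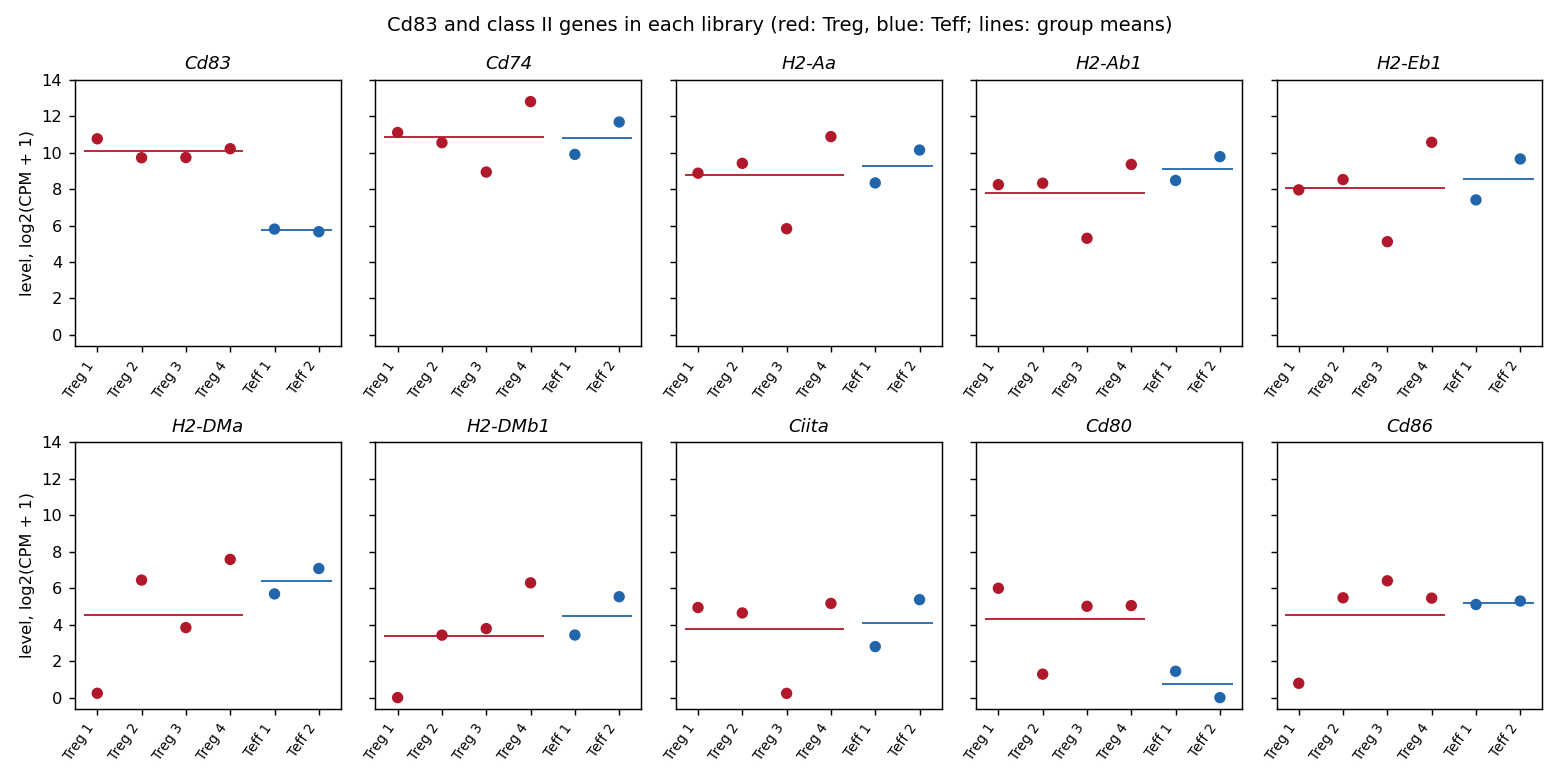
Level of each of the 10 genes in each library, as log2(CPM + 1), with the 4 Treg libraries in red and the 2 Teff libraries in blue; lines are means of the plotted values. Cd83 separates the groups, from 842 to 1733 CPM in Tregs against 54.9 and 49.6 CPM in Teffs, while every other gene overlaps between them.

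The class II chains and the invariant chain did not separate Tregs from Teffs, and instead varied widely among the Treg libraries. Cd74 stood at 2201, 1494, 488 and 7131 CPM in the Treg libraries, against 957 and 3281 CPM in the Teff libraries. H2-Aa, the alpha chain of I-A, stood at 468, 681, 55.7 and 1882 CPM in Tregs, against 322 and 1129 CPM in Teffs. For both genes Treg 4 was highest of all libraries, Treg 3 was lowest of all, and Teff 2 lay above Teff 1.

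The beta chains followed the same order of libraries at the extremes. H2-Ab1, the beta chain of I-A, stood at 302, 319, 38.4 and 652 CPM in the Treg libraries, against 355 and 879 CPM in the Teff libraries. H2-Eb1, the beta chain of I-E, stood at 248, 367, 33.7 and 1516 CPM in Tregs, against 169 and 804 CPM in Teffs. Treg 3 was again lowest in both, but for H2-Ab1 the highest library was Teff 2 and not Treg 4. The alpha chain that pairs with the product of H2-Eb1 is not made in some common laboratory strains, so a transcript of H2-Eb1 does not by itself speak for I-E on the surface.

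None of these 4 genes passed edgeR's test in either direction, none was called by DESeq2, and 0 had an unadjusted p under 0.05 in edgeR, against 4.73% of all genes tested. The log2 fold change was 0.42 ± 0.96 (SE) for Cd74, 0.09 ± 1.07 for H2-Aa, -0.91 ± 0.85 for H2-Ab1 and 0.15 ± 1.20 for H2-Eb1, with an edgeR adjusted p close to 1 for each. The 95% intervals were wide, from -1.79 to 2.62 for Cd74 and from -2.88 to 1.06 for H2-Ab1, so differences of several fold in either direction lie within most of them. The median of the 4 was 0.12, against 0.07 over all genes tested. The sign turned when either of 2 libraries was left out: the log2 fold change of Cd74, H2-Aa and H2-Eb1 was -0.61, -0.86 and -1.18 without Treg 4, and -0.22, -0.55 and -0.57 without Teff 1. Without Treg 3 it was 0.77, 0.48 and 0.55, and for H2-Ab1 it was -1.49 without Treg 4 and -0.54 without Treg 3.

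**Figure D2:**
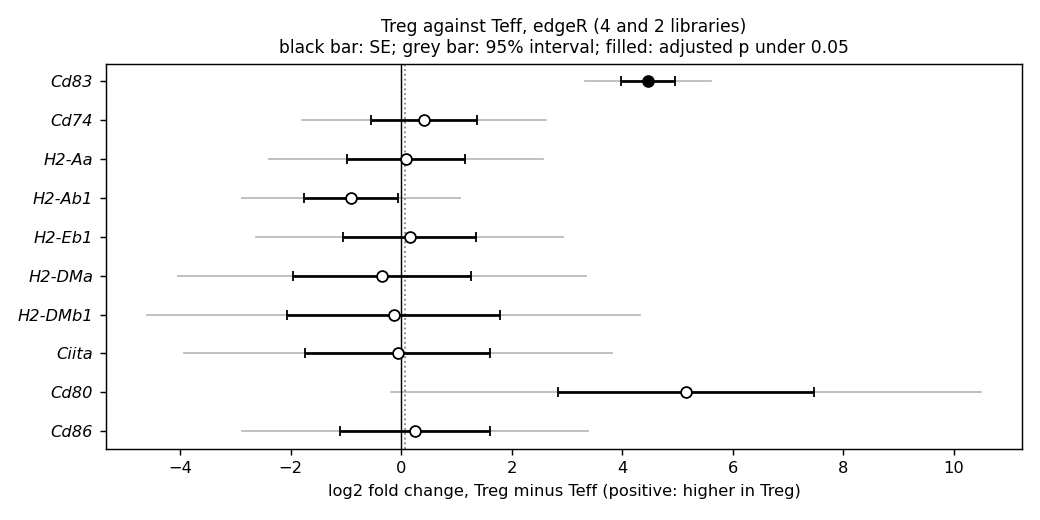
Log2 fold change, Treg minus Teff, of each gene in edgeR's quasi-likelihood fit of 4 Treg and 2 Teff libraries; black bars are the SE, grey bars the 95% interval, and the dotted line is the median of all genes tested. Cd83 at 4.46 is the only filled point (adjusted p under 0.05), Cd80 at 5.16 has the widest interval, and the other 8 lie between -0.91 and 0.42.

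The spread of class II transcripts among the Treg libraries was large, as for many genes here, and shared by the chains. Of all genes tested, 50.3% had a lower coefficient of variation over the Treg libraries than H2-Ab1, 65.1% than H2-Aa, 66.3% than Cd74 and 76.1% than H2-Eb1. Summed over H2-Aa, H2-Ab1 and H2-Eb1, the level was 1017, 1366, 128 and 4050 CPM in the Treg libraries, against 846 and 2812 CPM in the Teff libraries. The highest Treg library was 33.8 times the lowest for H2-Aa, 17.0 times for H2-Ab1, 45.04 times for H2-Eb1 and 14.6 times for Cd74. Between the Teff libraries the ratio was 2.48 to 4.76 times for these genes. Both Teff sums lay within the Treg range. In bulk RNA, a library with fewer class II-bearing cells and one with less class II RNA per cell cannot be told apart.

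Markers of cells that carry class II moved with part of this pattern. All 8 dendritic cell markers are in the table, and they summed to 46.7, 30.9, 65.9 and 404 CPM in the Treg libraries, against 121 and 143 CPM in the Teff libraries. Cd209a, a lectin of dermal dendritic cells, was the larger part of the sum except in Treg 2, at 24.7, 2.56, 35.2 and 256 CPM in Tregs, against 73.5 and 99.4 CPM in Teffs. Treg 4 was thus highest both in these markers and in the class II sum. Itgax, which encodes the dendritic cell integrin CD11c, was at 24.7 CPM in Treg 4 and at 0 in Treg 1 to Treg 3, and at 2.78 CPM in Teff 1 and 0 in Teff 2. Of 3 markers of 1 lineage of conventional dendritic cells, Clec9a and Batf3 were at or under 2.16 CPM in every library. The other, the chemokine receptor gene Xcr1, stood at 6.31, 23.7, 23.1 and 60.2 CPM in the Treg libraries, against 29.4 and 30.2 CPM in the Teff libraries.

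The other marker lists gave a less even picture. The 11 monocyte and macrophage markers, of which Adgre1 was matched under its older symbol Emr1, summed to 172, 200, 194 and 608 CPM in the Treg libraries, against 299 and 246 CPM in the Teff libraries. Lyz2, the lysozyme of myeloid cells, was 464 CPM of the sum in Treg 4. Other genes of the list did not follow it: Csf1r, the receptor for the growth factor of macrophages, stood at 78.1, 0, 33.1 and 0.713 CPM in Tregs, against 31.6 and 15.9 CPM in Teffs, and Fcgr1, an antibody receptor, was at 13.9 CPM in Treg 2 and at 0 in the other Treg libraries. The 4 B cell markers found, of 5 listed, summed to 28.3, 3.68, 3.86 and 52.9 CPM in the Treg libraries, against 29.3 and 12.6 CPM in the Teff libraries. Ms4a1, which encodes the B cell protein CD20, was at 2.80 CPM in Treg 3 and at 0 in the other Treg libraries, and at 9.002 CPM in Teff 1 and 0 in Teff 2. The Langerhans cell markers found, whose sums are given with Cd83, were Epcam and Mfge8.

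Epcam, an adhesion molecule of Langerhans cells and epithelia, stood at 48.2, 33.8, 17.9 and 53.2 CPM in the Treg libraries, against 1.46 and 0.388 CPM in the Teff libraries, and did not pass edgeR's test (adjusted p = 0.627). Its order over the libraries, with Treg above Teff throughout, was not that of the class II chains. The class II chain sum was not in a fixed ratio to the dendritic cell markers: it was 21.8, 44.2, 1.94 and 10.01 times their sum in the Treg libraries, against 6.97 and 19.6 times in the Teff libraries. Treg 3, lowest in class II, had more of these markers than Treg 1 and Treg 2. The part of such cells in the class II values was not tested.

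**Figure D3:**
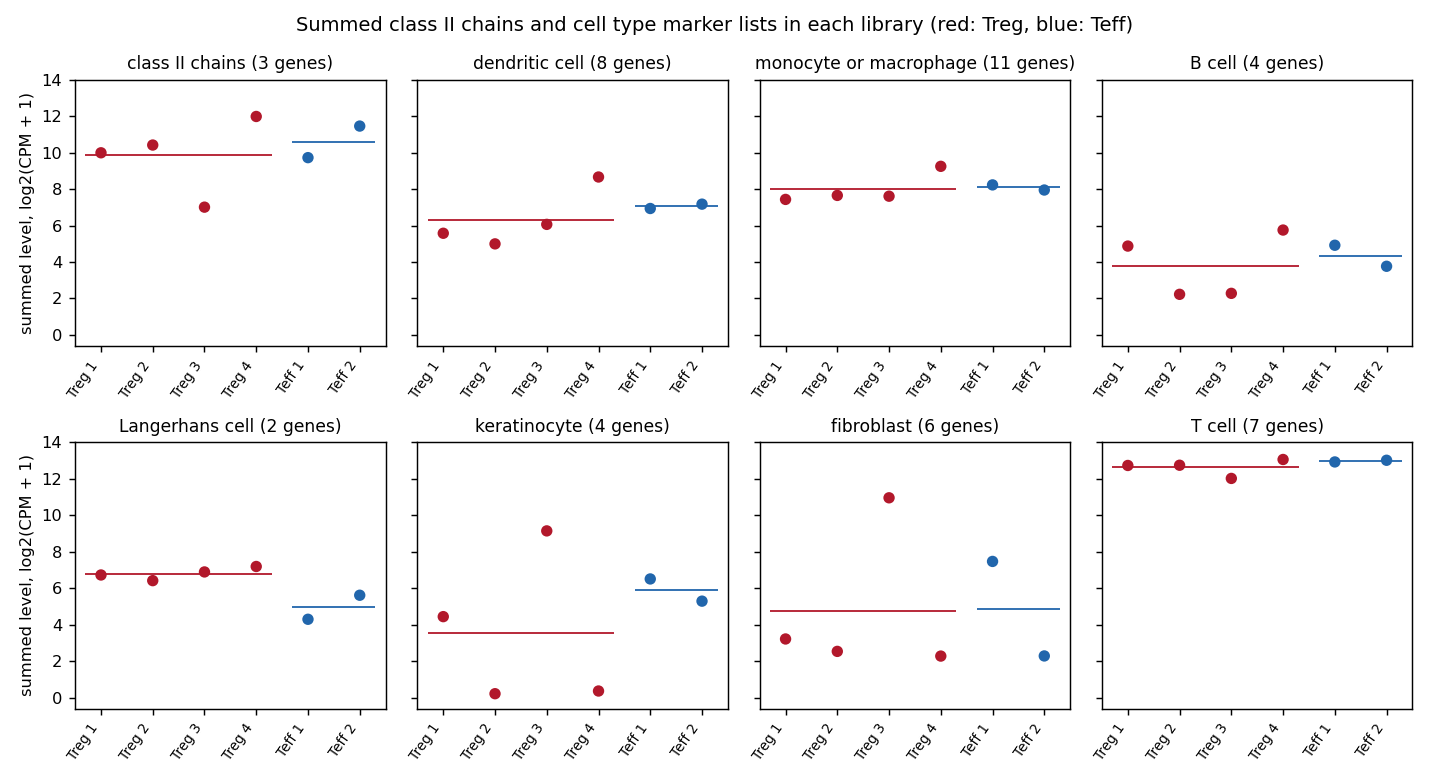
Summed level of the 3 class II chain genes and of 7 marker lists in each library, as log2(CPM + 1), Tregs in red and Teffs in blue; lines are means of the plotted values. Treg 4 is highest in class II (4050 CPM), in dendritic cell markers (404 CPM) and in the macrophage marker sum (608 CPM, of which Lyz2 is 464 CPM), while Treg 3 is lowest in class II (128 CPM) and highest in fibroblast markers (1994 CPM).

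The make-up of the chain transcripts differed between libraries as well. H2-Aa took 46.0%, 49.8%, 43.6% and 46.5% of the 3 chains' CPM in the Treg libraries, against 38.1% and 40.2% in the Teff libraries. Every Treg library lay above both Teff libraries in this share. H2-Ab1 took 29.7%, 23.3%, 30.0% and 16.1% in Tregs, and 41.9% and 31.2% in Teffs, with each Treg library below both Teff libraries. The nearest libraries of the 2 groups were close: exact binomial 95% intervals of the H2-Ab1 share were 26.7% to 33.5% in Treg 3 and 30.5% to 32.0% in Teff 2. These intervals cover counting error only, and the shares were compared after they had been seen. H2-Eb1 took 37.4% in Treg 4, against 24.3% to 26.8% in the other Treg libraries and 20.0% and 28.6% in Teffs.

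Cd74 ran ahead of the chains by a factor that also varied. It was 2.16, 1.09, 3.82 and 1.76 times the summed chain CPM in the Treg libraries, against 1.13 and 1.17 times in the Teff libraries. Treg 2 lay below both Teff libraries, so the groups overlapped. Cd74 lies on chromosome 18, from 60803848 to 60812652, and the chains lie together on chromosome 17: H2-Ab1 from 34257689 to 34269419, H2-Aa from 34282744 to 34287823 and H2-Eb1 from 34305867 to 34316674 (GRCm38). At most 0.514% of the 50-base stretches of any of these 4 genes recur in transcripts of another gene.

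**Figure D4:**
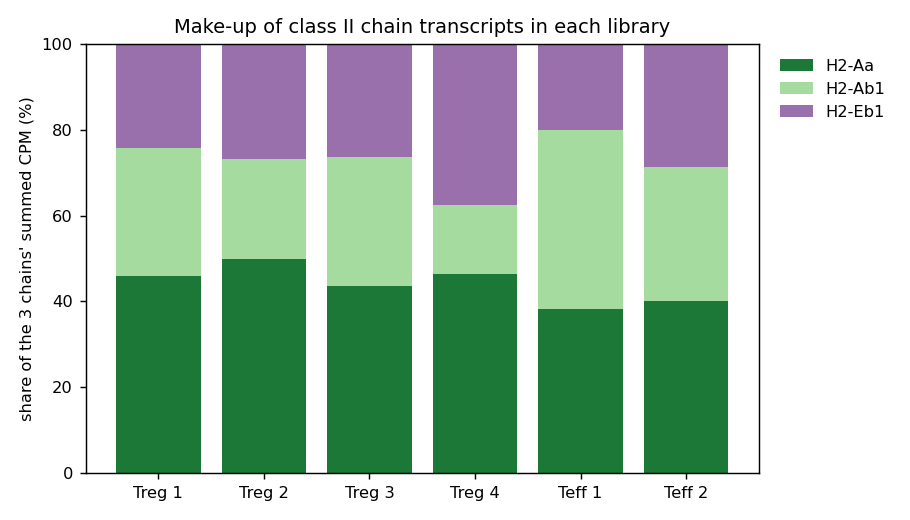
Share of H2-Aa, H2-Ab1 and H2-Eb1 in their summed CPM, in percent, for each of the 4 Treg and 2 Teff libraries; stacked bars add to the whole. The H2-Ab1 share runs from 16.1% to 30.0% in Tregs, against 41.9% and 31.2% in Teffs, and Treg 4 has the largest H2-Eb1 share at 37.4%.

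Genes of peptide exchange were low and uneven. H2-DMa, the alpha chain of the exchange factor H2-DM, stood at 0.180, 86.2, 13.3 and 191 CPM in the Treg libraries, against 50.6 and 135 CPM in the Teff libraries. The Treg 1 value is a single count, in a library with 2593 counts of H2-Aa. H2-DMb1, the beta chain, stood at 0, 9.76, 12.8 and 77.6 CPM in Tregs, against 9.80 and 45.4 CPM in Teffs, and its count of 0 in Treg 1 allows up to 0.541 CPM. Treg 4 was highest and Treg 1 lowest for both subunits, whereas Treg 3 was lowest for the class II chains.

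Neither subunit passed the test, with log2 fold changes of -0.35 ± 1.60 (SE) for H2-DMa and -0.14 ± 1.93 for H2-DMb1. Without Treg 1 these were 0.06 and 0.28, and without Treg 4 they were -1.49 and -1.89. With a block on the replicate number they were -3.66 and -4.32, neither called. That fit rests on Treg 1 and Treg 2 against the Teff libraries of the same number, and Treg 1 held 1 and 0 counts of these genes. Of the 50-base stretches of H2-DMb1, 22.7% recur in its close paralog H2-DMb2, where a read of that length would fit both genes, so its counts are uncertain. H2-DMa overlaps the antisense gene Brd2 over 10.4% of its exonic bases, and no source used here gives the strand setting of the counting. H2-DMa runs from 34119541 to 34139101 and H2-DMb1 from 34153072 to 34160230 on chromosome 17.

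Ciita was above the floor in every library but Treg 3, which had 1 count. It stood at 29.8, 24.0, 0.175 and 35.0 CPM in the Treg libraries, against 5.96 and 40.5 CPM in the Teff libraries. The library with the least Ciita was thus the one with the least class II, and Teff 2 lay above Teff 1 in Ciita as in every class II chain. Ciita did not pass the test, with a log2 fold change of -0.06 ± 1.68 (SE) and a 95% interval of -3.93 to 3.81, which spans large differences. It was 0.35 without Treg 3 and 1.89 without Teff 2. Ciita lies on chromosome 16, from 10480059 to 10528418, and the antisense gene Dexi overlaps 3.45% of its exonic bases.

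Cd80 had the highest log2 fold change of the 10 genes without passing the test. It stood at 63.0, 1.44, 31.2 and 32.1 CPM in the Treg libraries, against 1.72 and 0 CPM in the Teff libraries, where 0 allows up to 0.581 CPM. Treg 2, with 9 counts, lay below Teff 1, with 13 counts, and the other 3 Treg libraries lay well above both Teff libraries. The log2 fold change was 5.16 ± 2.31 (SE) with a 95% interval of -0.18 to 10.49, an unadjusted p of 0.0563 and an edgeR adjusted p close to 1. It was 5.55 without Treg 2, with an adjusted p of 0.761. Against Teff 2 alone, with no Cd80 count, the fitted fold depends on the prior count, and against Teff 1 alone the log2 fold change was 4.18.

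Cd86, the other ligand of CD28 and CTLA-4, did not follow Cd80. It stood at 0.722, 43.5, 84.0 and 42.9 CPM in the Treg libraries, against 33.5 and 38.4 CPM in the Teff libraries. Treg 1, the library with the most Cd80, held 4 counts of Cd86, and the other 3 Treg libraries lay above both Teff libraries. The log2 fold change was 0.25 ± 1.35 (SE), and it was 0.66 without Treg 1 and -0.31 without Treg 3. Cd80 (38455561 to 38496335) and Cd86 (36603869 to 36666081) both lie on chromosome 16 and share no 50-base stretch with transcripts of other genes.

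Scaled by exon length, the order of the genes differed between the groups in the place of Cd83. In Tregs the mean levels per kilobase of exon were 1685 CPM for Cd74, 448 for Cd83, 278 for H2-Eb1, 203 for H2-Aa and 128 for H2-Ab1. In Teffs they were 1262 CPM per kilobase for Cd74, 250 for H2-Eb1, 240 for H2-Ab1, 191 for H2-Aa, 26.8 for H2-DMa and 20.3 for Cd83. Cd83 was thus second of the 10 in Tregs and sixth in Teffs. Cd74 was above Cd83 in 3 of 4 Treg libraries, since in Treg 3 they stood at 291 and 330 CPM per kilobase, and Cd83 was above H2-Eb1 in 3 of 4, Treg 4 being the exception.

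Lower in the order, neighbours were within their spread. H2-DMa, H2-DMb1, Cd86 and Cd80 had Treg means of 21.1, 14.9, 11.7 and 8.62 CPM per kilobase, and no neighbouring pair among them kept its order in all 4 libraries. In Teffs the pairs H2-Eb1 and H2-Ab1, H2-DMa and Cd83, Cd83 and H2-DMb1, and H2-DMb1 and Cd86 each kept their order in 1 of 2 libraries. Ciita was lowest in Tregs at 2.33 CPM per kilobase, and Cd80 was lowest in Teffs at 0.232.

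Across the 6 libraries, the genes nearest to Cd83 in pattern were Il1rl1, Ctla4, Il2ra, Tigit and Lclat1. Likeness was the root mean square difference of centred log2 CPM, among 5770 genes of at least median level. It was 0.27 for Il1rl1, the IL-33 receptor chain, 0.42 for Ctla4, 0.49 for Il2ra, the high-affinity IL-2 receptor chain, 0.51 for the inhibitory receptor Tigit and 0.52 for Lclat1, an acyltransferase of lipids. The median over the genes searched was 2.25. All 5 had every Treg library above both Teff libraries, as Cd83 has, which their choice by likeness to Cd83 largely fixes. Lclat1, for one, stood at 186 to 507 CPM in Tregs and 28.7 and 20.0 CPM in Teffs.

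The genes nearest to Cd74 were Mgl2, Adck3, Slc25a38, Galm and Med11. Mgl2, a lectin of dermal dendritic cells and macrophages, came first at a difference of 0.29, nearer than H2-Aa at 0.64, H2-Eb1 at 0.66 and H2-Ab1 at 0.81. Mgl2 stood at 62.8, 68.2, 16.5 and 264 CPM in the Treg libraries, against 50.6 and 134 CPM in the Teff libraries. Like Cd74 it was highest in Treg 4 and lowest in Treg 3. Adck3, a mitochondrial kinase-like protein of coenzyme Q synthesis, followed at 0.50, the last of the 5 lay at 0.61, and the median over the genes searched was 1.44. Cd83 lay at 2.34 from Cd74, Cd86 at 2.63 and Cd80 at 3.07, all farther than that median. So did the class II genes H2-DMb1, at 2.46, and H2-DMa, at 2.80, while Ciita lay at 1.36. The genes searched were of at least median level (33.1 CPM), and the means of Cd80, H2-DMb1 and Ciita were lower in both groups. Single libraries near 0 weigh on these distances: Cd80 had 0 counts in Teff 2, H2-DMb1 0, H2-DMa 1 and Cd86 4 in Treg 1, and Ciita 1 in Treg 3.

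**Figure D5:**
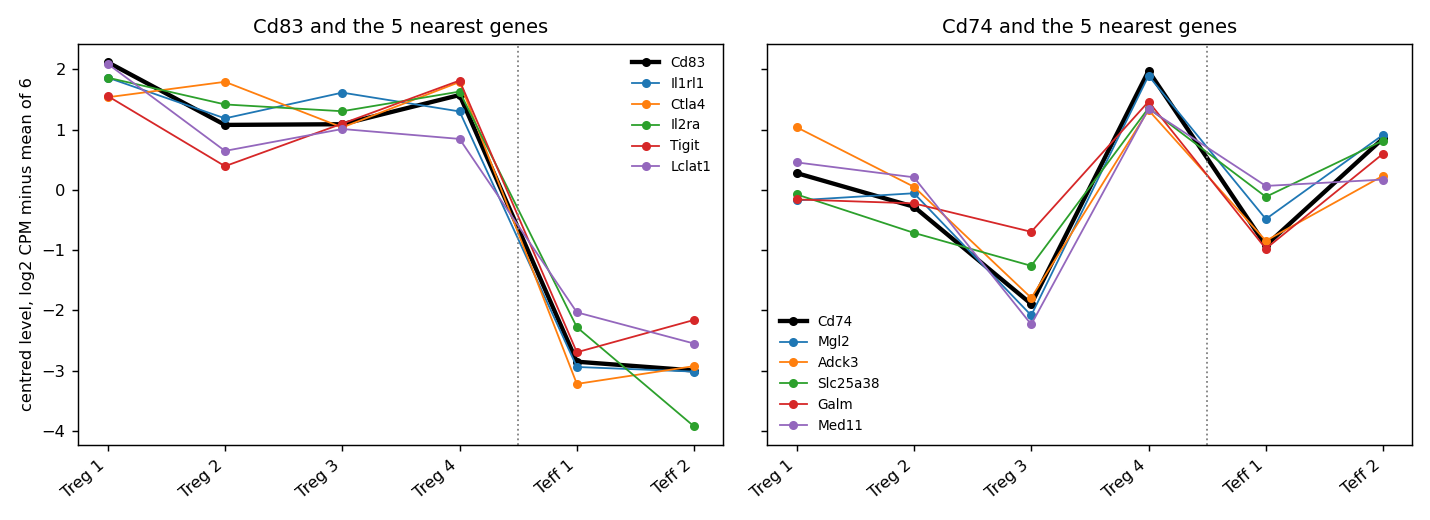
Centred level, log2 CPM minus the mean of the 6 libraries, of Cd83 (left, black) and Cd74 (right, black) with the 5 nearest genes of each; the dotted line parts Treg from Teff libraries. The Cd83 group is high in all 4 Treg libraries and low in both Teff libraries, while the Cd74 group peaks in Treg 4 and dips in Treg 3.

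Other genes of the class II pathway, listed with earlier results of these data known, gave 0 calls in edgeR in either direction among 17 tested, and the 2 ligases March1 and March8 were not analysed here. In antigen processing, 0 of 7 genes were called in edgeR, DESeq2 called 1 (Lgmn), and the median log2 fold change was 0.46. In edgeR 2 had an unadjusted p under 0.05, Lgmn with Tregs higher and Ctsd with Tregs lower. Over all genes the shares were 4.73% for an unadjusted p under 0.05 and 1.86% for DESeq2. Lgmn, the asparagine-specific protease legumain, named after its values were seen, stood at 166, 118, 61.0 and 192 CPM in the Treg libraries, against 5.96 and 0.775 CPM in the Teff libraries. The groups did not overlap, yet it missed the threshold (log2 fold change 5.29 ± 1.06, edgeR adjusted p = 0.283). Ctss, the protease that trims the invariant chain, averaged 552 ± 213 CPM (SD, n = 4) in Tregs, against 302 ± 26.5 CPM (SD, n = 2) in Teffs, again without overlap, as 5.51% of all genes were with Tregs higher (log2 fold change 0.87 ± 0.41, adjusted p close to 1).

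The remaining processing genes stood on both sides of 0. Ctsd, the protease cathepsin D, averaged 546 ± 109 CPM in Tregs, against 1015 ± 55.4 CPM in Teffs. All Treg libraries lay below both Teff libraries, which holds for 9.49% of all genes tested. Its log2 fold change was -0.89 ± 0.31, with an edgeR adjusted p of 0.731. The same-strand gene model Gm49369 shares 34.4% of the exonic bases of Ctsd. Ctsb, cathepsin B, averaged 703 ± 257 CPM in Tregs, against 512 ± 234 CPM in Teffs. Sppl2a, which cuts the last stub of CD74 in the membrane, averaged 161 ± 45.9 CPM in Tregs, against 209 ± 3.27 CPM in Teffs. Groups overlapped for both. Antisense genes overlap 12.8% of the exonic bases of Ctsb, and 33.8% of those of Rfxank, 14.7% of Psmb8, 18.1% of Nfkb2 and 14.1% of Cd274, genes given below.

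The 7 transcription factor genes that act at class II promoters gave 0 calls in edgeR and in DESeq2, 0 unadjusted p-values under 0.05, and a median log2 fold change of 0.02. Creb1, which binds beside the X box, averaged 189 ± 75.5 CPM in Tregs, against 197 ± 43.1 CPM in Teffs. Nfyb, an NF-Y subunit, averaged 104 ± 12.2 CPM against 102 ± 6.10 CPM, and Rfxank, an RFX subunit, 95.6 ± 27.3 CPM against 102 ± 13.0 CPM. Nfya, another NF-Y subunit, was at 37.5, 0.960, 36.5 and 9.70 CPM in the Treg libraries, against 27.3 and 37.2 CPM in the Teff libraries. The 3 further class II genes found, H2-DMb2 and the H2-DM inhibitors H2-Oa and H2-Ob, were at 0 to 37.8 CPM in Tregs and 0 to 23.1 CPM in Teffs.

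Class I presentation is the route to CD8 T cells. The coefficient of variation of its genes over the Treg libraries ran from 17.5% for Psmb8 to 97.7% for Erap1, a peptidase, and that of Cd74 and the class II chains from 76.7% to 123%. Of 14 genes 0 were called in edgeR or DESeq2, and their median log2 fold change was -0.06. In edgeR 1 had an unadjusted p under 0.05, against 4.73% of all genes tested. H2-K1, a class I heavy chain, averaged 4473 ± 1004 CPM in Tregs, against 4223 ± 47.1 CPM in Teffs. For B2m, the shared light chain, the averages were 4926 ± 1613 CPM in Tregs and 4369 ± 185 CPM in Teffs. H2-D1 was less even, at 461 to 1950 CPM in Tregs and 484 and 1169 CPM in Teffs, and 9.63% of the 50-base stretches of H2-K1 and 12.8% of those of H2-D1 recur in other genes. H2-T23, a class Ib heavy chain, averaged 604 ± 189 CPM in Tregs, against 568 ± 47.3 CPM in Teffs. For 3 genes, Psmb8, Psmb9 and Nlrc5, all Treg libraries lay below both Teff libraries, which holds for 9.49% of all genes tested. They were named for that after their values were seen. Psmb8, an immunoproteasome subunit, averaged 354 ± 62.1 CPM against 731 ± 64.2 CPM (log2 fold change -1.05 ± 0.30, edgeR adjusted p = 0.721).

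Receptors for CD80 and CD86 differed from each other. Ctla4 rose in Tregs, at 2611 to 4413 CPM against 136 and 167 CPM in Teffs (log2 fold change 4.64 ± 0.43, edgeR adjusted p = 0.0378). The call ended when any single library was left out (edgeR adjusted p of 0.0791 to 0.373 over all 6). Cd28 averaged 1282 ± 816 CPM in Tregs, against 1564 ± 40.7 CPM in Teffs (log2 fold change -0.29 ± 0.51). Its highest library was Treg 1, at 2496 CPM. Icos, a related receptor, averaged 4066 ± 1050 CPM against 1903 ± 211 CPM (edgeR adjusted p = 0.721). Its groups did not overlap, which holds with Tregs higher for 5.51% of all genes tested. Cd274, the ligand PD-L1, averaged 275 ± 197 CPM against 121 ± 63.7 CPM. Of the 7 genes in this list edgeR called Ctla4 alone, against 0.0425% of all genes tested. DESeq2 called Ctla4 and Icos, against 1.86% of the genes it tested. The median log2 fold change of the 7 was 1.10, against 0.07 over all genes tested.

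Genes whose products work with CD74 as a receptor for the cytokine MIF gave 0 calls in edgeR and DESeq2 among 4, with 0 unadjusted p-values under 0.05. Cd44 averaged 1661 ± 196 CPM in Tregs, against 1890 ± 26.6 CPM in Teffs. Cxcr4 averaged 170 ± 75.3 CPM against 93.3 ± 58.9 CPM. Mif itself was at 14.8 to 33.0 CPM in Tregs and 37.6 and 25.0 CPM in Teffs, and Ddt, its homolog, at 10.1 to 31.6 CPM and 36.0 and 22.7 CPM. The median log2 fold change was -0.21.

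Further genes that dendritic cells raise with CD83 on maturation gave 0 calls in edgeR and DESeq2 among 6 tested of 9 listed. An unadjusted p under 0.05 in edgeR was found for 1 of them, against 4.73% of all genes tested. All 6 log2 fold changes were positive, with a median of 0.81, against 0.07 over all genes tested. How many of all genes had a positive sign was not counted, and Lamp3 and Fscn1 were too low to be tested. Nfkb1, a subunit of the transcription factor NF-kappa-B, averaged 450 ± 179 CPM in Tregs, against 196 ± 0.180 CPM in Teffs (log2 fold change 1.20 ± 0.45, edgeR adjusted p = 0.826). Its groups did not overlap, which holds with Tregs higher for 5.51% of all genes tested. Tnfaip3, its feedback inhibitor A20, averaged 1447 ± 399 CPM against 984 ± 202 CPM, Nfkb2 111 ± 38.3 CPM against 59.96 ± 23.2 CPM, and Ccr7, the receptor that guides cells to lymph nodes, 80.3 ± 45.2 CPM against 50.9 ± 5.68 CPM. A pair of genes with strong ties to mature dendritic cells were nearly absent: Lamp3 was at or under 0.530 CPM in every library, and Fscn1 was at 7.54 CPM in Treg 3 and at or under 1.59 CPM elsewhere. Treg 4, with the most class II and Cd209a, had no count of either. Other genes of this list differed: Cd40 stood at 0, 11.7, 7.36 and 48.9 CPM in the Treg libraries, against 9.66 and 0 CPM in the Teff libraries. Ccr7 was likewise highest in Treg 4, at 135 CPM, whereas Relb was highest in Treg 2, at 132 CPM.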

How the data were processed

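The authors deposited 1 table with raw whole-number counts per gene for 4 Treg and 2 Teff libraries, as its headers and values show (per the file headers). The deposited comparison in it gives a fold change and a mean level on the log2 scale, a p-value and an FDR, per the file headers. A positive deposited fold change means higher in Tregs, as a comparison with the counts showed. The submitters' processing notes name TopHat2 2.0.12, Bowtie2 2.1.0.0, HTSeq 0.6.1 and build mm10. No source used here gives the annotation or the strand setting. The 3 rows that name no gene (88.0% to 90.2% of a column) were left out.

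Counts were tested in R 4.3.3 with edgeR 4.0.16 (filterByExpr, TMM, glmQLFit, glmQLFTest on group alone), with Benjamini-Hochberg adjustment over 11775 genes and calls at 0.05. The SE comes from the log2 fold change and its F statistic, and the 95% interval uses the test's degrees of freedom. The fit was tested on simulated counts with a far smaller spread between libraries than these data have, so that test does not show how well it performs here. An exact permutation test of 4 against 2 cannot go below p = 0.0667. Alternatives were DESeq2 1.42.0, other scalings, filters, libraries left out and a replicate block. Named genes were the 10 members, Foxp3, Ctla4, Cd28, up to 4 genes of highest mean per list, and the 5 nearest to Cd83 and to Cd74 in pattern (prior count 2); further genes were named after their values were seen. Members and lists were chosen with earlier results of these data known. Coordinates and exon lengths are from GENCODE M21 (GRCm38), promoters from RefSeq (GRCm38.p6). Genes not listed at a symbol, such as Cd207, were not analysed here. A B cell marker of the list is not reported here and was left out of its sum.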

Additional observations from a re-analysis of the deposited data

Results flagged for a closer look

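H2-DMb1 stood far from its group in 1 library: Treg 4 had 77.6 CPM, and the nearest Treg library had 12.8 CPM. The gap took up 0.835 of the range of the 4 Treg libraries, above Dixon's 95% critical value, and chance alone flags about 1 group in 20. The same library was highest in H2-DMa, the class II chains and dendritic cell markers among Tregs, and the part of such cells in this value was not tested.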

How the results depend on the processing

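Cd83 was the 1 member called under both other scalings, both other filters, DESeq2, an adjusted p of 0.10 and the replicate block, and 0 members were called when any single library was left out (range 0 to 0) or when Treg 1 and Treg 2 alone were set against both Teff libraries, an alternative chosen after seeing the data. Over 14 alternatives its log2 fold change ran from 4.197 to 4.63. Treg 3 and Treg 4 have no Teff library of their number, so with the replicate block they add nothing to the difference between groups. That fit rests on Treg 1 and Treg 2 against the Teff libraries of the same number. The number of genes called was 5 in the edgeR fit of all libraries. It was 19 with no filter, 184 with DESeq2, 15 with the replicate block and 9 at an adjusted p of 0.10. With Treg 1 and Treg 2 alone it was 0, and 1341 genes had an unadjusted p under 0.05 in edgeR. With any 1 Treg library left out it was 0, and 618 to 779 genes had such a p. Fewer samples were fitted in the last 2 cases, and otherwise the cause was not tested. Upper-quartile scaling put the median of all genes at -0.04, against 0.07 with TMM, and gave H2-Aa -0.020. The titles number both groups. Deviations of same-numbered libraries from their group means had correlations of -0.04 and 0.15 over genes. The deviations of 2 Teff libraries mirror each other, so these are not separate checks and cannot settle whether the numbers are pairs. The numbers were not taken as pairs. With the replicate block the log2 fold change was -0.10 for H2-Aa, -0.29 for H2-Eb1, 0.78 for Ciita, -2.53 for Cd86, -3.66 for H2-DMa and -4.32 for H2-DMb1, none of them called. With Treg 1 and Treg 2 alone it was -0.20 for Cd74, -0.35 for H2-Aa, -0.67 for H2-Eb1, 0.20 for Ciita, -0.71 for Cd86 and 0.092 for Cd28. With each library left out in turn it ran from -0.61 to 1.56 for Cd74, -0.86 to 1.25 for H2-Aa, -1.49 to -0.12 for H2-Ab1, -1.18 to 1.67 for H2-Eb1, -1.49 to 0.51 for H2-DMa, -1.89 to 1.34 for H2-DMb1, -0.87 to 1.89 for Ciita and -0.31 to 0.66 for Cd86. Cd80 kept a positive sign throughout. Counts at or under 13 in Teffs limit Cd80, and a lone Teff library is assumed to vary like the others.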
